A study of Mus musculus with 39 samples.

Results

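The miRNAs encoded inside the Hox gene clusters were followed through the differentiation of mouse embryonic stem cells (ESCs) towards definitive endoderm (DE), the embryonic layer that gives rise to gut, liver and pancreas. They were the 4 array rows named mmu-miR-10a, mmu-miR-10b, mmu-miR-196a and mmu-miR-196b, taken by name out of 650 miRNAs on the array, and all 4 were found on every array. At day 5 the pair of miR-196 miRNAs was detected with Activin A, was higher again with Activin A plus Wnt3a, and was undetected in control cells. MiR-10a and miR-10b rose with Wnt3a at day 3. With Activin A, miR-10a was lower than in control at days 3 and 5, and miR-10b reached 95.8 to 113 units of total signal with Activin A plus Wnt3a. Which of these arrays are Activin A and which are Activin A plus Wnt3a rests on the labels of the scanner files, and the deposited table of processed values gives the opposite assignment.

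Hox genes encode homeodomain transcription factors that set position along the head-to-tail axis of the embryo, and they lie in clusters whose order along the chromosome follows their order of use. MiR-10 and miR-196 genes sit between Hox genes in these clusters, are transcribed in patterns like those of their neighbours, and repress several Hox mRNAs. A miRNA recognises its targets mainly through the seed, the bases near its 5′ end, so that miRNAs with the same seed share many predicted targets.

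The mature sequences are shown 5′ to 3′ because the 4 miRNAs form 2 pairs that differ by 1 base each. They were taken from RefSeq (GRCm38.p6), all 4 names were matched, and the capitals mark the seed, bases 2 to 8 counted from the 5′ end.
mmu-miR-10a: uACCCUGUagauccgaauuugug
mmu-miR-10b: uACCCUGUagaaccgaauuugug
mmu-miR-196a: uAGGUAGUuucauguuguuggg
mmu-miR-196b: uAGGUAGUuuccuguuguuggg

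MiR-10a and miR-10b share the seed ACCCUGU and 22 of 23 bases, with U12A from miR-10a to miR-10b. MiR-196a and miR-196b share the seed AGGUAGU and 21 of 22 bases, with A12C from miR-196a to miR-196b. Positions are counted from 1 at the 5′ end, and both changes lie outside the seed. No other mature miRNA matched to an array row had either seed. MiR-10a is encoded at chr11:96317186-96317208 on the plus strand, within the span of Hoxb3 and between Hoxb5 and Hoxb4. MiR-10b is encoded at chr2:74726074-74726096 on the plus strand, within the spans of Hoxd3 and Hoxd4. MiR-196a has 2 genes with the same mature sequence, Mir196a-1 at chr11:96265187-96265208 (plus strand) between Hoxb13 and Hoxb9, and Mir196a-2 at chr15:102973365-102973386 (plus strand) between Hoxc10 and Hoxc9. The array cannot tell these copies apart. MiR-196b is encoded at chr6:52230129-52230150 on the minus strand, between Hoxa9 and Hoxa10. The 4 miRNAs thus come from all of the Hoxa, Hoxb, Hoxc and Hoxd clusters.

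The study asked how Activin A, a TGF-beta family ligand that drives ESCs towards endoderm, and Wnt3a, a ligand of the Wnt pathway, act on miRNAs alone and together. Total RNA was measured on 39 Agilent 1-colour arrays, 3 for each of 13 groups. All cells were of TCL-1, a single mouse ESC line from 129/SvJae mice, grown on mitomycin C-treated mouse embryonic fibroblast (MEF) feeders with LIF. Undifferentiated ESCs formed 1 group. The other cells were freed of feeders on gelatin, seeded on collagen and kept in RPMI 1640 with B27 and what the labels call sodium butyrate, controls included. For 1, 3 or 5 days they received no growth factor (control), Wnt3a at 50 ng/ml, Activin A at 100 ng/ml, or both at the same doses (Activin A plus Wnt3a, below also the combination). The sources do not say that the 3 samples of a group were separate cultures, so p-values measure only the spread between these samples, which may be technical.

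Values are given on either of 2 scales. The total signal is the background-subtracted intensity that the scanner software summed over the probes it detected for a miRNA, before any scaling between arrays. The normalized level is the log2 of that signal after quantile normalization over all arrays, with a floor of 2. A miRNA with no detected probe on an array is called undetected. A difference was called when limma gave it an adjusted p under 0.05 (Benjamini-Hochberg over all miRNAs tested) and its size exceeded 2-fold.

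The number of detected miRNAs per array was 183 to 249 up to day 1 and 254 to 375 at days 3 and 5. The pluripotent cell markers, the miR-290 and miR-302 clusters, fitted the label: 14 of 16 were detected in undifferentiated ESCs, with a summed normalized signal of 37775 to 38387, and miR-291b-3p and miR-291b-5p were undetected. At day 5 that sum was 9973 to 10608 in control and 39197 to 41649 with the combination. MEF feeder or fibroblast markers were also present in undifferentiated ESCs, 4 of 6 with a sum of 444 to 518, and miR-143 and miR-145 were undetected there. Wnt3a day 5 replicate 1 stood apart, with correlations of 0.870 and 0.894 to its replicates against 0.976 or more within every other group. Where leaving it out changed a call or a direction, the value without it is given.

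The deposited table of processed values goes against the scanner files for 18 of 39 arrays. All 18 are of Activin A or of the combination, and the column named for each holds the rank order of an array of the other treatment at the same day. Which assignment is right was not settled from the files. Activin A and the combination below mean the arrays so labelled in the scanner files, and under the other assignment their names would be exchanged. The results that hold under either assignment are those of Wnt3a against control and those found for both treatments alike, such as the low miR-10a and the detected miR-196 pair at day 5.

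**Figure D1:**
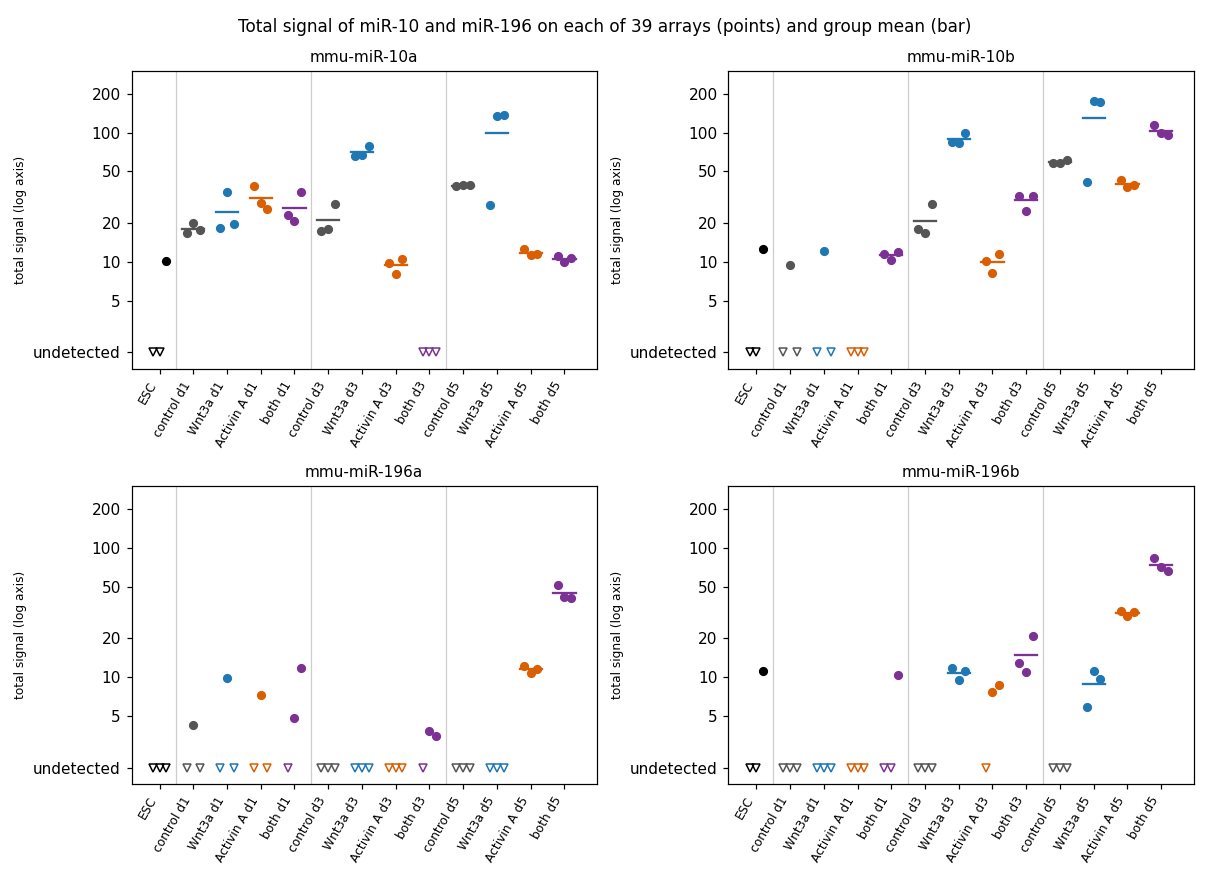
Total signal, in scanner units on a log axis, of miR-10a, miR-10b, miR-196a and miR-196b on each of the 39 arrays, with the mean of the 3 arrays as a bar where all 3 detected the miRNA; open triangles mark undetected arrays and "both" stands for Activin A plus Wnt3a. MiR-196a was detected on all 3 arrays only with Activin A (10.74 to 12.3) and with the combination (40.9 to 51.5) at day 5, and miR-10a was undetected on all 3 arrays of the combination at day 3.

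MiR-10a was detected on 34 of 39 arrays and miR-10b on 30. MiR-196b was detected on 19 and miR-196a on 13. All 4 differed among the 13 groups in limma's F-test, with adjusted p-values of 3.64e-10 for miR-10a, 2.97e-06 for miR-10b, 0.00323 for miR-196a and 2.52e-06 for miR-196b. That test passed 88.5% of the 373 miRNAs tested, so passing it does not set them apart.

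In undifferentiated ESCs, 3 of the 4 miRNAs were detected on replicate 3 alone, miR-10a at 10.2, miR-10b at 12.5 and miR-196b at 11.2, and miR-196a was undetected on all 3 arrays. Replicate 3 had 235 miRNAs detected, against 193 and 183 on the others. By day 1, miR-10a was detected in every group. Its total signals were 16.9, 19.9 and 17.6 in control and 18.4, 34.7 and 19.5 with Wnt3a. With Activin A they were 38.9, 28.7 and 25.8, and with the combination 23.1, 20.9 and 34.7. MiR-10b was near the limit of detection at day 1, detected on all 3 arrays only with the combination (11.5, 10.4 and 11.8), on replicate 2 in control (9.45) and with Wnt3a (12.1), and on no array with Activin A. MiR-196a was detected at day 1 on replicate 2 of all 4 groups and on replicate 3 with the combination, at 4.25 to 11.8. MiR-196b was detected on 1 of these 12 arrays, at 10.3.

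No member was called at day 1 by limma among the 3 tested. Control shared no slide with Wnt3a or the combination on that day, and only Activin A lay on both slides. Slide and treatment can thus be told apart in those comparisons with control only through the Activin A arrays. The percentages called among all 240 miRNAs tested were 4.17% for Wnt3a against control, 0% for Activin A, 5.42% for the combination, 0.833% for the combination against Activin A, 0.417% for it against Wnt3a, and 0% for the interaction, the effect of both factors less the sum of the single effects. At an unadjusted p under 0.05 there was 1 member in each of these comparisons except Wnt3a against control, which had 0. The methods' test called 1 member for the combination against Activin A and 0 in the other treatment comparisons of that day. Of 16 other settings, 7 called 1 member for the combination against Activin A. In limma, 1 member was called for the combination against control without control day 1 replicate 2, and 1 against Activin A without that array or without Wnt3a day 1 replicate 2. The lowest detected normalized signal ran from 12.3 to 33.7 over the day 1 arrays, so differences between low signals were not detectable at that depth.

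At day 3 the miR-10 pair rose with Wnt3a. MiR-10a gave total signals of 17.3, 18.1 and 28.2 in control and 65.7, 67.3 and 78.5 with Wnt3a. MiR-10b gave 17.9, 16.6 and 27.97 in control and 84.5, 83.7 and 99.0 with Wnt3a. No Wnt3a array overlapped a control array for either miRNA. On the log2 scale, miR-10a was higher by 1.41 (SE 0.17, n = 3 per group, limma adjusted p = 0.000251) and miR-10b by 1.78 (SE 0.17, limma adjusted p = 5.42e-05). MiR-196b was undetected on all 3 control arrays and gave 11.9, 9.503 and 11.2 with Wnt3a (limma adjusted p = 0.00629). Where a group was undetected on all 3 arrays, the size of the fitted difference is set by the floor, so the fold of its brighter probe before scaling between arrays, with no test, is given in its place. That probe of miR-196b was 4.08-fold higher with Wnt3a. MiR-196a was undetected in both groups. Thus 3 of 4 members rose with Wnt3a, where 3.07% of 326 miRNAs tested were called. The number was 0 in 1 fit of all 39 arrays, where the differences were 1.41 for miR-10a (limma adjusted p = 0.102) and 1.78 for miR-10b (limma adjusted p = 0.213), and 0 with normexp correction, where they were 0.35 and 0.62. Fewer cells of a type and less RNA per cell cannot be told apart in these bulk samples, here or in any comparison below.

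Activin A alone moved the miR-10 pair the other way at day 3. In that comparison 6 of 6 epithelium and endoderm markers and 7 of 15 pluripotent markers tested were called higher. Of 4 neural markers tested, 2 were called lower and 1 higher. MiR-10a gave 9.86, 8.01 and 10.6 and miR-10b gave 10.1, 8.27 and 11.6, all below the 6 control values. MiR-10a fell by 1.15 on the log2 scale (SE 0.17, limma adjusted p = 0.000372) and miR-10b fell by 1.01 (SE 0.17, limma adjusted p = 0.000678), both close to the 2-fold limit. MiR-196b was undetected on replicate 1 and gave 7.71 and 8.72 on the others, a log2 difference of 1.33 from control (SE 0.45, limma adjusted p = 0.0297). So 3 of 4 members were called, where the percentage called over all miRNAs was 19%. Without control day 3 replicate 3, the array with the highest control signals, 0 members were called, and without Activin A day 3 replicate 2, 1 member was.

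With the combination at day 3 the pair of miR-10 miRNAs came apart. MiR-10a was undetected on all 3 arrays and was called lower than in control (limma adjusted p = 1.29e-07), Wnt3a alone (limma adjusted p = 1.4e-08) and Activin A alone (limma adjusted p = 2.21e-05). Before scaling, its brighter probe was 3.26-fold below control, 8.6-fold below Wnt3a and 1.66-fold below Activin A. MiR-10b gave 32.5, 24.9 and 32.3 in the same samples. It differed from control by 0.22 on the log2 scale (SE 0.17, 95% interval -0.16 to 0.60, limma adjusted p = 0.28). Against Activin A it was higher by 1.23 (SE 0.17, limma adjusted p = 0.000764), and against Wnt3a it fell by 1.56 (limma adjusted p = 4.05e-05). MiR-196b gave 12.8, 11.1 and 20.8, higher than control (limma adjusted p = 0.0012), with its brighter probe 4.68-fold higher. With the processed values as named, the combination differed from Activin A by 2.20 for miR-10a (limma adjusted p = 0.000352) and -1.54 for miR-10b (limma adjusted p = 0.00244), the reverse of both directions. For miR-196b, the difference from Activin A was 1.02 (SE 0.45, limma adjusted p = 0.123) and from Wnt3a 0.26 (SE 0.45, limma adjusted p = 0.644). MiR-196a was detected on replicates 2 and 3 at 3.81 and 3.49 and on no array of the other day 3 groups.

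Calls for the combination at day 3 numbered 2 of 4 members against control (20.2% of all tested), 2 against Activin A (3.99%) and 2 against Wnt3a (18.1%). The interaction of both factors was called for miR-10a, at -3.60 on the log2 scale (SE 0.25, limma adjusted p = 1.18e-05), where 3.99% of all miRNAs were called. This value uses the floor for 3 undetected arrays, so its size depends on the floor, and 2 members were called without Activin A day 3 replicate 1. With the processed values as named it was 0.25. The 3 arrays of the combination at day 3 were the only day 3 arrays on their slide and were scanned in another session than the rest of that day, so slide and treatment cannot be told apart in these comparisons. Control, Wnt3a and Activin A shared slide 2. Within it, with 2 control arrays, Wnt3a differed from control by 1.18 for miR-10a and 1.60 for miR-10b, and Activin A by -1.38 and -1.20. Some of these miRNAs were among those the study selected on these same arrays, so their directions are not independent evidence.

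**Figure D2:**
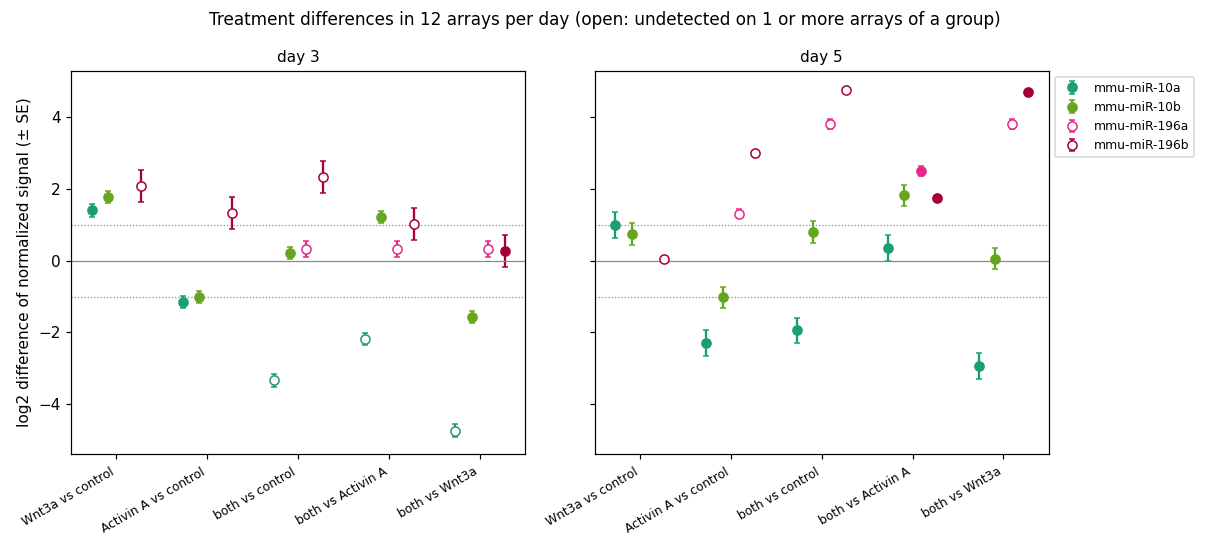
Differences between treatments in normalized level (log2, vertical axis) at day 3 and day 5, each point the limma estimate with its SE from 3 against 3 arrays; open points had 1 or more undetected arrays, for which the size depends on the floor, dotted lines mark 2-fold and "both" stands for Activin A plus Wnt3a. At day 5, the combination against Activin A gave 2.51 for miR-196a, 1.74 for miR-196b, 1.83 for miR-10b and 0.35 for miR-10a.

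At day 5 the miR-196 pair was found mainly where Activin A had been given. MiR-196a was undetected on all 3 control and all 3 Wnt3a arrays. It gave 12.3, 10.74 and 11.5 with Activin A and 51.5, 41.9 and 40.9 with the combination, 2 groups that did not overlap. MiR-196a was called higher than control with Activin A (limma adjusted p = 4.89e-05) and with the combination (limma adjusted p = 2.97e-08), at normalized levels of 2.31 and 4.82 against controls at the floor. Between these treatments the log2 difference was 2.51 (SE 0.13, limma adjusted p = 3.55e-06). It was -2.68 with the processed values as named (limma adjusted p = 1.24e-06).

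MiR-196b was undetected on all 3 control arrays at day 5. It gave 32.7, 29.6 and 32.1 with Activin A and 83.9, 71.6 and 66.3 with the combination, again without overlap. It was called higher than control with Activin A (limma adjusted p = 6.91e-10) and with the combination (limma adjusted p = 1.21e-11), and its brighter probe was 10.9-fold and 25.8-fold higher before scaling. It was higher with the combination than with Activin A by 1.74 on the log2 scale (SE 0.06, limma adjusted p = 8.68e-08), whereas the processed values as named gave -2.45 (limma adjusted p = 3.72e-06). Wnt3a alone gave 5.87, 11.1 and 9.75, low signals that lay at or near the floor after quantile normalization, and the difference from control was 0.05 (SE 0.06, limma adjusted p = 0.689). When arrays were scaled to their 75th percentile, taken over miRNAs present on all of them, the same difference was 1.63 (limma adjusted p = 1.01e-05). The combination exceeded Wnt3a alone by 4.71 for miR-196b (SE 0.06, limma adjusted p = 1.32e-11), a size that depends on the floor since the brighter probe differed 5.2-fold. MiR-196a was also called higher than with Wnt3a (limma adjusted p = 2.97e-08), its brighter probe by 8.32-fold.

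MiR-10a stayed low wherever Activin A was present at day 5. It gave 38.3, 38.99 and 39.03 in control, 12.6, 11.3 and 11.5 with Activin A, and 11.02, 9.95 and 10.8 with the combination. The control arrays overlapped neither treated group. MiR-10a fell by 2.29 on the log2 scale with Activin A (SE 0.36, limma adjusted p = 0.000791) and fell by 1.95 with the combination (SE 0.36, limma adjusted p = 0.00175). The difference between these treatments was 0.35 (SE 0.36, 95% interval -0.47 to 1.17, limma adjusted p = 0.952), which does not show that they were alike, and the order of the group means was the other way on the scale of total signal. Against Wnt3a alone it fell by 2.94 with both factors (limma adjusted p = 0.000173), with -3.44 without Wnt3a day 5 replicate 1.

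MiR-10b showed another order of groups than miR-10a at day 5. It gave 58.0, 58.2 and 61.1 in control, 42.7, 38.1 and 39.1 with Activin A, and 113, 99.8 and 95.8 with the combination. These 3 groups did not overlap on the scale of total signal. MiR-10b fell by 1.02 with Activin A (SE 0.30, limma adjusted p = 0.0246), a call at the 2-fold limit that was lost under 9 of 16 other settings and on leaving out any 1 of 6 of the 12 arrays. The difference of the combination from control was 0.80 (SE 0.30, limma adjusted p = 0.0527) and from Wnt3a 0.05 (SE 0.30, 95% interval -0.62 to 0.73, limma adjusted p = 0.932), the latter -0.34 without Wnt3a day 5 replicate 1. Without that array the difference from control had a limma adjusted p of 0.00156, at the same size. From Activin A to the combination it rose by 1.83 (SE 0.30, limma adjusted p = 0.00771). With the processed values as named, miR-10b was higher than control by 0.89 with Activin A (limma adjusted p = 0.0397), -1.51 from control to the combination (limma adjusted p = 0.00304), and -2.40 from Activin A to the combination (limma adjusted p = 0.000927).

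Wnt3a alone gave uneven arrays at day 5. MiR-10a gave 27.5, 133 and 136 and miR-10b 41.1, 174 and 172, with replicate 1 below every control array for each. No member was called against control, where 3.8% of 368 miRNAs were called: the differences were 1.00 for miR-10a (SE 0.36, limma adjusted p = 0.15) and 0.75 for miR-10b (SE 0.30, limma adjusted p = 0.183), 2 members had an unadjusted p under 0.05, and the methods' test called 0. Without Wnt3a day 5 replicate 1, 2 members were called, with 1.49 for miR-10a (limma adjusted p = 0.000529) and 1.14 for miR-10b (limma adjusted p = 0.00177).

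Members called at day 5 numbered 4 of 4 for Activin A against control (25% of all tested), 3 for the combination against control (30.4%), and 3 for it against Wnt3a (25.3%). The combination against Activin A called 3 of 4 members, where 2.72% or 10 of 368 miRNAs were called. The interaction was called for miR-196a at 2.51 (SE 0.19, limma adjusted p = 6.98e-05) and miR-196b at 1.70 (SE 0.08, limma adjusted p = 2.3e-06), where 2.17% were called. Without Wnt3a day 5 replicate 1, 3 members were called for the interaction. For miR-196a and miR-196b the processed values as named gave -2.66 and -3.03. For miR-196a both control and Wnt3a lay at the floor, so this equals the difference between the combination and Activin A. For miR-196b the interaction turned with the scaling. It was -0.26 with that 75th percentile, 0.18 with the percentile over every miRNA, and 0.26 with quantile normalization within the day.

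Slides at day 5 were shared in part. The combination and Wnt3a lay on 1 slide, where their difference was that of the whole fit. That slide also held 1 Activin A array, from which the combination differed by 2.15 for miR-196a, 1.63 for miR-196b, 1.80 for miR-10b and 0.12 for miR-10a. The other slide held 2 Activin A and 3 control arrays, with Activin A differing by -2.41 for miR-10a, -1.04 for miR-10b, 1.13 for miR-196a and 2.96 for miR-196b. With slide as a block, the rise of miR-10b from Activin A to the combination was 1.80 and its limma adjusted p was 0.103. Control thus shared no slide with Wnt3a or the combination at day 5. Slide and treatment can be told apart in those comparisons with control only through Activin A, which lay on both slides.

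Markers of other cell types moved with the same comparisons at day 5. The fibroblast or feeder list summed to 28.8 to 29.5 in control, 24.2 to 28.8 with Activin A and 72.0 to 77.3 with the combination, where 4 to 5 of 6 were detected and miR-145 was undetected. In the combination against Activin A, 2 of its 5 tested members were called higher. The epithelium and endoderm list summed to 117 to 119 in control, 1309 to 1325 with Activin A and 1289 to 1364 with the combination, and 6 of 6 were called higher against control for each treatment. The neural list summed to 747 to 980 in control, 77.7 to 87.5 with Activin A and 35.0 to 40.2 with the combination, with 4 of 4 called lower for each. At day 3 the fibroblast or feeder list summed to at most 35.9 on any array, with miR-199a-5p, miR-214, miR-143 and miR-145 undetected in every group. The part of these cell types in the changes of miR-10 and miR-196 was not tested.

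**Figure D3:**
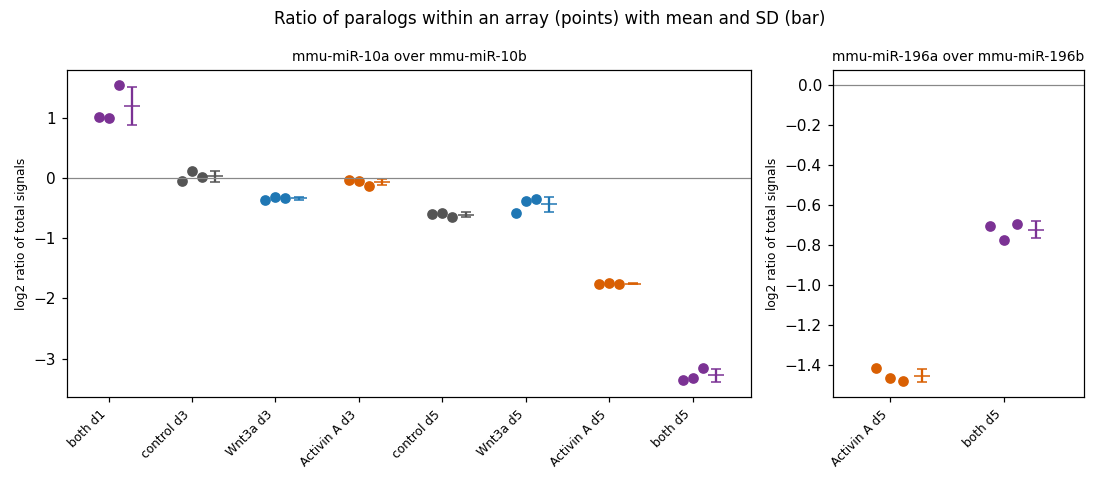
Log2 ratio of total signals of miR-10a over miR-10b (left) and miR-196a over miR-196b (right) within each array (points), with mean and SD of 3 arrays, for groups where both were detected on all 3; "both" stands for Activin A plus Wnt3a. The miR-10 ratio at day 5 was -0.61 in control, -1.76 with Activin A and -3.28 with the combination, and the points of these groups lie apart.

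The ratio of the 2 miRNAs of a pair within an array does not depend on scaling between arrays. It does not compare their amounts, since each has its own probes, and it moves with the number of probes summed, so the ratio over all probes, detected or not, is given as well. At day 3 the log2 ratio of miR-10a to miR-10b was 0.03 ± 0.09 (SD, n = 3) in control, -0.34 ± 0.02 for Wnt3a and -0.07 ± 0.05 for Activin A. At day 5 it was -0.61 ± 0.03 in control, -0.44 ± 0.13 with Wnt3a, -1.76 ± 0.01 with Activin A and -3.28 ± 0.11 with the combination. The ratio thus differed by -1.15 between Activin A and control and by -2.67 between the combination and control. The ratio of miR-196a to miR-196b was -1.45 ± 0.03 with Activin A and -0.72 ± 0.04 with the combination at day 5, a difference of 0.73. MiR-196a totals summed 2 of 4 probes in the former and 4 in the latter, and miR-10a totals 2 of 2 in control and 1 with either treatment. Over all probes the miR-10 ratio was -0.61 in control, -1.28 with Activin A and -2.89 with the combination, differences from control of -0.67 and -2.28, and the miR-196 ratio differed by 0.21. In these comparisons the groups did not overlap on either count of probes. With 3 arrays against 3 the two-sided exact permutation test cannot go below 0.1, which was the p of these comparisons of detected totals (0.125 after adjustment over 10 comparisons of ratios).

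**Figure D4:**
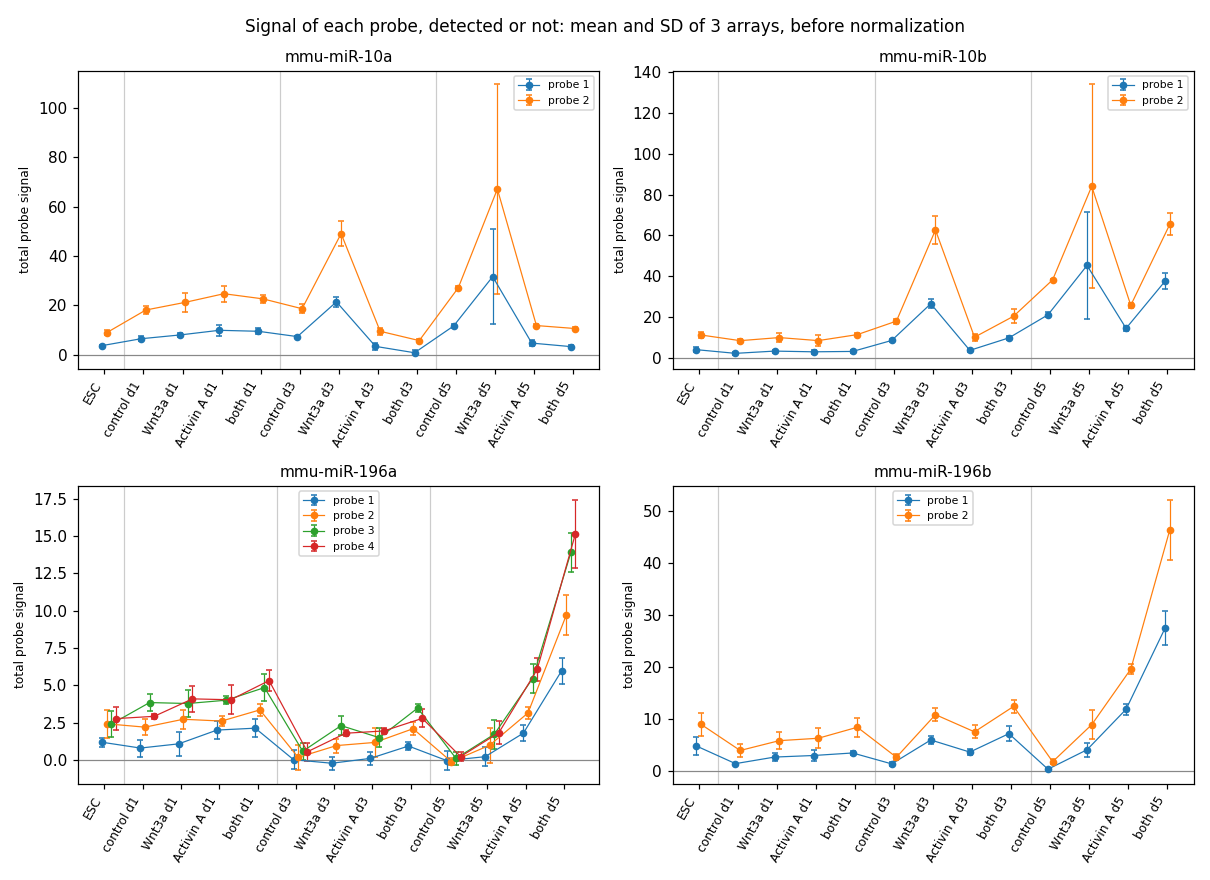
Background-subtracted total signal of each probe of the 4 miRNAs, detected or not and before scaling between arrays, as mean and SD of 3 arrays per group; "both" stands for Activin A plus Wnt3a. Both probes of miR-10b and of miR-196b and all 4 probes of miR-196a were higher with the combination than with Activin A at day 5, while the brighter probe of miR-10a lay between 9.95 and 12.6 in these groups.

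The probes behind a total differed between groups, because the software sums only the probes it detects. Each of miR-10a, miR-10b and miR-196b had 2 probes and miR-196a had 4. For miR-10a, 2 probes were summed on all control and Wnt3a arrays at day 5 and 1 on all arrays with Activin A. For miR-196a, 2 were summed with Activin A and 4 with the combination. Taken alone, the brighter probe of miR-10a gave 26.7 to 27.96 in control at day 5, 11.3 to 12.6 with Activin A and 9.95 to 11.02 with the combination. The brighter probe of miR-10b gave 37.6 to 38.8, 24.4 to 26.8 and 61.9 to 71.6. At day 3 the brighter probe of miR-10a gave 4.92 to 6.26 with the combination, below its 8.01 to 10.6 with Activin A and its 17.3 to 20.6 in control. The directions of the totals therefore held for single probes in these comparisons. For miR-196a, each of the 4 probes was higher on every array of the combination than on any array of Activin A at day 5, the dimmest at 5.35 to 6.98 against 1.42 to 2.40.

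The normalized level, unlike the total signal, was used to order the groups. MiR-10a was at 5.49 to 6.01 (mean log2) in all day 1 groups and in Wnt3a at days 3 and 5, neighbours whose arrays overlapped. Control followed at 4.63 on day 5 and 4.34 on day 3, also overlapping. On the scale of total signal, however, mean miR-10a in control was higher at days 3 and 5 than at day 1. Every day 1 array also lay below every Wnt3a array of day 3 on that scale. Activin A at day 3 (3.19), the combination at day 5 (2.68) and Activin A at day 5 (2.33) came last, without overlap between neighbours. Before scaling these groups ran in the reverse order. Their brighter probe, the only 1 summed there, had means of 9.49, 10.6 and 11.8, so this order depends on the scaling. MiR-10b was at 6.08 to 6.23 in the combination at day 5 and Wnt3a at days 3 and 5, which overlapped. Control at day 5 was at 5.43 and Activin A at day 3 last at 3.29. Between them, the combination at days 1 and 3, Activin A at day 5 and control at day 3 overlapped at 4.30 to 4.75. In total signal, every array of the combination at day 1 lay below every array of these other groups. MiR-196b was highest in the combination at day 5 (5.76), then Activin A at day 5 (4.01), then the combination (3.35) and Wnt3a (3.09) at day 3, which overlapped. Groups with an undetected array were left out of these orders.

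In normalized level, miR-10a was called lower and miR-10b higher from day 1 to day 3 in control and with Activin A. MiR-196 was called from day 3 to day 5 with both factors. From undifferentiated ESCs to control day 1, 1 of 4 members was called (16.6% of 373 tested): miR-10a, by 3.39 (SE 0.53, limma adjusted p = 8.95e-06), a size that depends on the floor for 2 undetected ESC arrays. The fibroblast or feeder list moved with it, from 444 to 518 in ESCs to 978 to 1018 in control at day 1. It fell to 17.7 to 25.3 in control at day 3. With Activin A the list summed to 939 to 988 at day 1 and 0 to 8.43 at day 3. With the combination it summed to 1012 to 1040 and 6.38 to 10.3. Of 5 list miRNAs tested for day 3 against day 1, 4 were called lower in control and 5 with each treatment, Wnt3a included. With Wnt3a, miR-10a was not called in that step. The part of the list in these changes was not tested. In control from day 1 to day 3, 2 were called (49.3%), with -1.26 for miR-10a (limma adjusted p = 0.0388) and 2.14 for miR-10b (limma adjusted p = 0.0264), against a median of 0.50 over all miRNAs. For miR-10a the order of these group means was the other way on the scale of total signal. Both calls were lost without control day 1 replicate 1 or replicate 3, and 1 was lost without any of the control day 3 arrays. In the same step with Wnt3a, 2 were called (44%), with 3.95 for miR-10b (limma adjusted p = 0.000154) and 2.09 for miR-196b (limma adjusted p = 0.0118). The latter started from 3 undetected arrays and was -0.15 with all probes summed. MiR-10b was detected at day 1 on replicate 2 alone in control and with Wnt3a, so its sizes of 2.14 and 3.95 depend on the floor. Their lowest values over the other settings were 0.03 and 0.64. With Activin A, 2 were called (42.4%), with -2.82 for miR-10a (limma adjusted p = 3.64e-05) and 2.29 for miR-10b (limma adjusted p = 0.0199), the latter from 3 undetected arrays. With all probes summed, detected or not, miR-10b with Activin A was -0.77 instead (limma adjusted p = 0.000376). The combination was scanned in an earlier session at day 1 than at day 3, so its step between these days cannot be told apart from scan session. In that step 1 was called (41%): miR-10a, lower at day 3 (limma adjusted p = 1.12e-08), with its brighter probe 3.96-fold lower. Leaving out any 1 of 12 arrays of the fit, namely Activin A plus Wnt3a day 1 replicate 1 or 3, day 3 replicate 2, all Wnt3a and Activin A arrays of day 1, control day 1 replicates 1 and 2 and undifferentiated ESC replicate 3, gave 2.

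From day 3 to day 5, the limma fit called 0 members in control (18.5%; 0 at an unadjusted p under 0.05) and 0 with Activin A (6.7%; 1 at an unadjusted p under 0.05). The latter became 1 without undifferentiated ESC replicate 3 or without Activin A plus Wnt3a day 1 replicate 3. With Wnt3a, 1 was called (22%): miR-196b, by -2.04 (limma adjusted p = 0.0203), although its total signals overlapped between the days, and the call was lost without Wnt3a day 3 replicate 1. With the combination, 3 of 4 were called, where 4.83% of all miRNAs were. MiR-196a rose by 3.49 (SE 0.85, limma adjusted p = 0.00434), miR-196b by 2.41 (SE 0.71, limma adjusted p = 0.0196), and miR-10a was called higher (limma adjusted p = 0.029), with its brighter probe 1.85-fold higher. This count was 1 without Activin A plus Wnt3a day 3 replicate 1, day 3 replicate 2, day 5 replicate 1 or day 5 replicate 2. Slides 4 and 5 were scanned in a later session than slides 1 to 3, so day 3 against day 5 cannot be told apart from scan session. The exception is the combination, which was scanned in the later session on both of these days. No treatment had arrays of 2 days on 1 slide, so slide and day cannot be told apart either.

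The change of a treatment's effect from day 3 to day 5 was tested directly. In limma it was called for 0 members with Wnt3a (2.14%; 0 at an unadjusted p under 0.05), 0 with Activin A (9.92%; 0 at an unadjusted p under 0.05) and 1 with the combination (14.2%). That member was miR-196a, whose difference from control was larger at day 5 by 3.49 (SE 1.21, limma adjusted p = 0.0294). In 13 other settings this last count was 1 in 3, 2 in 6 and 0 in 4. It was 0 without control day 5 replicate 3 or Activin A plus Wnt3a day 3 replicate 1 or 3, 2 without Activin A plus Wnt3a day 1 replicate 3, and 3 without undifferentiated ESC replicate 3, which also gave 1 for Activin A. The combination and control were scanned in different sessions at day 3 and in the same session at day 5. The change of the combination's effect therefore cannot be told apart from scan session.

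The miR-99 and miR-100 miRNAs, members of the same ancient family as miR-10, lie outside the Hox clusters and are shown because their seed starts like that of miR-10 and then differs. The capitals mark bases 2 to 8.
mmu-miR-99a: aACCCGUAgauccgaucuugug
mmu-miR-99b: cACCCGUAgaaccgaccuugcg
mmu-miR-100: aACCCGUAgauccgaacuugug

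MiR-99a and miR-100 were undetected on every array of Activin A and of the combination at days 3 and 5. In control at day 5, miR-99a gave 85.1, 88.8 and 90.1 and miR-100 gave 101, 102 and 110. With Activin A at day 5, both were called lower, miR-100 with limma adjusted p = 9.17e-09 and miR-99a with limma adjusted p = 2.22e-09. MiR-10a was also lower in these samples but was detected on all of them. MiR-99b went the other way, from 70.4, 73.9 and 77.7 in control to 266, 224 and 235 with Activin A at day 5, higher by 1.48 (SE 0.30, limma adjusted p = 0.0039). None of the 3 relatives was called by Wnt3a against control at days 3 and 5 in limma, where 3 and 0 members of the Hox clusters were. In the combination against Activin A, miR-99a and miR-100 lay at the floor in both groups, so they could not be called. MiR-99b was not called there at days 3 and 5, where 2 and 3 members of the Hox clusters were.

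**Figure D5:**
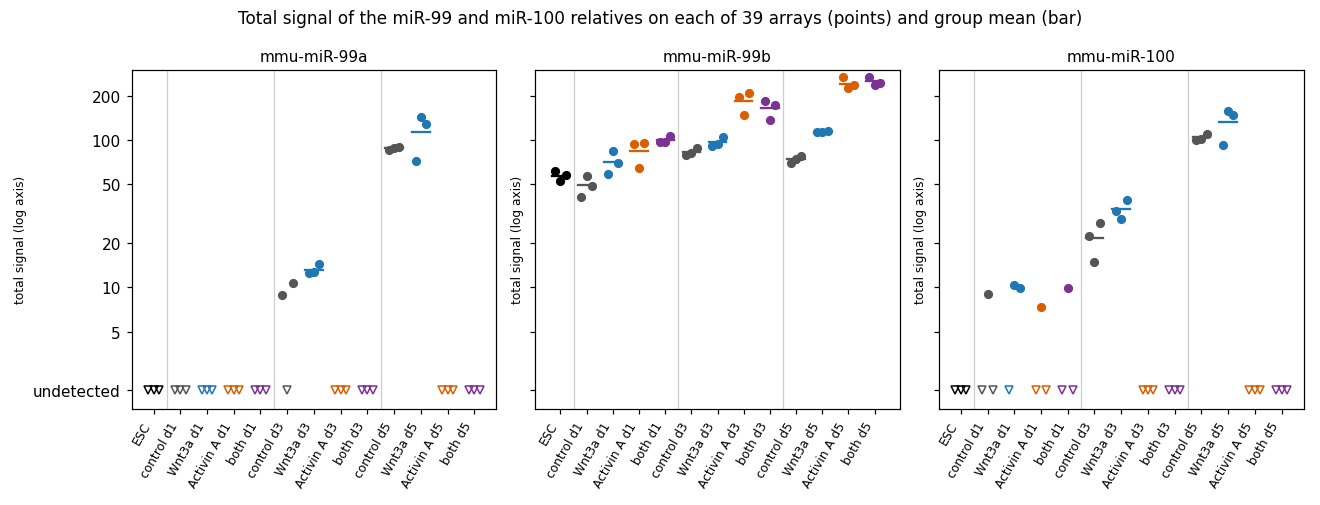
Total signal, in scanner units on a log axis, of miR-99a, miR-99b and miR-100 on each of the 39 arrays, with the mean of the 3 arrays as a bar where all 3 detected the miRNA; open triangles mark undetected arrays and "both" stands for Activin A plus Wnt3a. MiR-99a and miR-100 have no detected array with Activin A at days 3 and 5, while miR-99b is at 224 to 267 with Activin A or the combination at day 5.

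The other Hox cluster rows on the array were the opposite strands miR-10a*, miR-10b* and miR-196a* and the products miR-615-3p and miR-615-5p of Mir615, which lies within Hoxc5. All 5 were undetected on all 39 arrays, so the signal of these loci was measured only on the 4 rows described here.

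Among all miRNAs tested over 39 arrays, those whose 13 group means were most like each member were named, as a description over 13 points that share the same arrays and scaling. For miR-10a they were miR-15a (Pearson r = 0.82), miR-193b (0.76) and the neural miR-124 (0.75). For miR-10b they were miR-872 (0.83), miR-711 (0.81) and miR-710 (0.81). For miR-196a they were miR-125a-5p (0.73), miR-143 (0.68), found in smooth muscle and fibroblasts, and miR-99b (0.63). For miR-196b they were miR-375 (0.90), known from pancreatic islets and gut epithelium, miR-24-2* (0.83) and miR-205 (0.80). Between members, r was -0.12 for miR-10a and miR-10b, 0.58 for miR-196a and miR-196b, and -0.63 for miR-10a and miR-196b. The pair that shares the miR-10 seed thus had group means with almost no linear relation over the 13 groups. Undetected arrays lay at the floor, and miR-10b was detected on all arrays of only 9 groups, so these values between members depend on the floor. So do those with other miRNAs. MiR-196b was detected on all arrays of 5 groups and miR-196a of 2. For miR-375 and miR-205 it was 6 groups, for miR-143 4 and for miR-24-2* 1. At day 3 miR-10a and miR-10b both rose with Wnt3a and both fell with Activin A.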

How the data were processed

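RNA of 39 samples, in 13 groups of 3 by their labels, was hybridised to Agilent mouse miRNA arrays in 1 colour. The authors deposited scanner output with intensity values. Feature Extraction (10.7.3.1 in the headers, 9.5.3.1 in the labels) had subtracted the background, and a miRNA's total is the sum of its detected probes, written as 0.1 where there was none. Other deposited columns used were detection flags from that software, which served as a filter. The deposited table of processed values holds log2 values the authors made by quantile normalization. It was an alternative only, because 18 of its 39 columns hold the rank order of another array, all exchanged between Activin A and Activin A plus Wnt3a of the same day. Columns as named and columns matched to their arrays were both tried.

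Quantile normalization of the totals used limma 3.58.1 under R 4.3.3. Values under 2 were set to 2 before log2 was taken. Tests covered each miRNA detected on at least 2 of 3 arrays of a group of the fit. Treatments were compared with limma within the 12 arrays of a day, days and changes of effects over 39 arrays, with Benjamini-Hochberg adjustment over all miRNAs tested. Each array had 0 saturated spots, and the number of arrays limits the precision. The fits were tested on simulated data for Activin A plus Wnt3a against control. The day 5 fit over 368 miRNAs recovered 80% of changes of 1.5 and 96.7% of changes of 3 on the log2 scale. The day 3 fit over 326 recovered 88.3% and 98.3%, and the day 1 fit over 240 recovered 61.7% and 86.7%. Changes were added to simulated normalized levels without applying the floor or a detection step. These rates therefore do not cover comparisons with undetected groups.

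Alternatives were other scalings, floors, filters, normexp correction with an offset of 50, the processed values, the methods' test (a plain test per miRNA), 1 fit of all arrays, slide or replicate number as a block (random blocks with statmod 1.5.0), each array left out in turn, and, added after seeing the data, the sum of all probes detected or not. Deviations of same-numbered arrays of different groups correlated at -0.49 to 0.39, over 0.1 in 21 of 54 pairs. A shared deviation of some pairs was therefore not excluded.

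The members and lists were chosen with earlier results of these data known. The miRNAs named are the 4 members, other Hox cluster rows, the relatives miR-99 and miR-100, and the 3 miRNAs most like each member. Markers were fixed per cell type; muscle markers summed to at most 6.37 on any array. Sequences and Hox neighbours are from RefSeq (GRCm38.p6).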

Additional observations from a re-analysis of the deposited data

Results flagged for a closer look

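At day 3 the effect of the combination on miR-10a differed from the sum of the single effects by -3.60 on the log2 scale in limma, where miR-10a rose with Wnt3a and was undetected with both factors. At day 5 the same difference was 2.51 for miR-196a and 1.70 for miR-196b. The effect of the combination on miR-196a was larger at day 5 than at day 3 by 3.49. For miR-10a and miR-196a the sizes rest on groups at the floor, and for miR-196b the direction turned with the scaling. With the processed values as named, which exchange Activin A and the combination, the first value was 0.25 and the miR-196 values at day 5 were -2.66 and -3.03.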

How the results depend on the processing

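Results that turned direction, lost or gained a call, or numbers called that moved beyond 1.5 times, follow, with log2 differences in limma where not said to be numbers of members called. With the processed values as named, in which arrays of Activin A and of the combination are exchanged, directions turned. At day 3 miR-10b was 0.36 for Activin A and -1.19 for the combination against control, and miR-196a was -0.043 for the combination. The combination against Activin A was 2.20 for miR-10a, -1.54 for miR-10b, -0.64 for miR-196a and -0.92 for miR-196b, against Wnt3a it was -0.74 for miR-196b, and the interaction was 0.25 for miR-10a. At day 5 miR-10b was 0.89 for Activin A and -1.51 for the combination against control and -2.32 for the combination against Wnt3a. The combination against Activin A was then -0.29 for miR-10a, -2.40 for miR-10b, -2.68 for miR-196a and -2.45 for miR-196b, and the interaction was -2.66 for miR-196a and -3.03 for miR-196b. Between days, miR-10b was -0.36 from day 1 to 3 with Activin A, and miR-10a was -0.66 from day 3 to 5 with the combination. The numbers called from day 3 to 5 were 3 with Activin A and 0 with the combination. With all probes summed, miR-10b was -0.033 and miR-196a 1.55 for the combination against control at day 3, miR-10a was -0.024 for the combination against Activin A at day 5, the miR-196b interaction at day 5 was -0.23, and from day 1 to 3 miR-196b was -0.15 with Wnt3a and miR-10b -0.77 with Activin A. With normexp and an offset of 50, which shrinks low signals by construction, 0 members were called in all steps between days. The same held for all comparisons of days 3 and 5 with a call, the interactions included. At day 3 the combination against control was then -0.17 for miR-10a, -0.0092 for miR-196a and 0.12 for miR-196b, and against Wnt3a -0.093 for miR-196a. At day 5 it was -0.15 for miR-10a, 0.22 for miR-196a and 0.77 for miR-196b against control, and miR-10b was -0.045 from day 1 to 3 with Activin A. A floor of 8 gave 0.35 for miR-196b in the combination against control at day 3. With slide as a block miR-196b was -0.12 for Wnt3a against control at day 5. With the 75th percentile over miRNAs detected on all arrays, the combination at day 5 was -0.013 for miR-10a against Activin A and -0.14 for miR-10b against Wnt3a, and the miR-196b interaction was -0.26. One fit of all 39 arrays called 0 members for Wnt3a and for Activin A against control at day 3 and for the combination against Activin A at day 5, 1 for the combination against Activin A and against Wnt3a at day 3, and 2 for Activin A against control at day 5. The floor of 8 called 1 for the combination against control and against Activin A at day 3, 1 in control from day 1 to 3 and from day 3 to 5, 1 from day 1 to 3 with Wnt3a and with Activin A, and 0 from day 3 to 5 with Wnt3a. All probes summed called 1 for the combination against Activin A at day 3, 1 for Wnt3a against control at day 5, and 2 from ESCs to control day 1, from day 3 to 5 with Wnt3a and from day 1 to 3 with the combination. Both 75th percentile scalings called 1 for Wnt3a against control at day 5, 0 from day 3 to 5 with Wnt3a, and 2 from day 1 to 3 with the combination. The numbers from day 3 to 5 with Activin A were 2 over the miRNAs detected on all arrays and 1 over all miRNAs, and in control from day 1 to 3 the former called 1, as did no filter. The other quantile normalizations, of floored log2 signals and after the floor, called 0 from day 3 to 5 with Wnt3a. From day 1 to 3 with the combination, 2 were called with the processed values named or matched, detection on 3 of 3 arrays, slide as a random block, and the replicate block. The replicate block moved no other number of calls. Over the leave-outs of 1 array, the numbers ran from 0 to 3 for Activin A against control at day 3, 0 to 2 for Wnt3a against control at day 5, 0 to 2 in control from day 1 to 3, 1 to 2 with the combination from day 1 to 3, and, from day 3 to 5, 0 to 1 with Wnt3a, 0 to 1 with Activin A and 1 to 3 with the combination. MiR-10b in the combination against Wnt3a at day 5 ran from -0.34 to 0.41. Of other settings, 10 of 13 moved the number called for the change of the combination's effect from day 3 to day 5 (0 to 2), 7 of 16 that for the combination against Activin A at day 1 (0 to 1), 6 of 15 that for the day 5 interaction (0 to 1) and 3 of 14 that for the day 3 interaction (0 to 2). Slide as a fixed block could not be fitted for the combination at day 3. The cause of these changes was not tested except where stated. On day 1 arrays, normalized signals under 12.3 to 33.7, by array, were beyond detection.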
